A study of Mus musculus with 6 samples.

Results

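The 7 genes described here encode subunits of the GABA-A receptor: the alpha subunits Gabra2, Gabra3, Gabra4 and Gabra5, the beta subunits Gabrb1 and Gabrb2, and the delta subunit Gabrd. They were chosen by gene symbol as subunits used in the forebrain, and each matched 1 row of the 38087 genes in the deposited table. RNA came from the cerebrum of 3 wild-type (WT) mice and 3 Sgo1-/+ mice, with 1 library per mouse. All mice were 24 months old and labelled C57BL6, a background that the study's methods describe as based on that strain, and the Sgo1-/+ mice were haploinsufficient for Shugoshin-1, a protector of cohesin, in every tissue. The males were WT replicate 1 and Sgo1-/+ replicate 2, and the 4 remaining mice were females. The tissue, as the study's methods describe it, was frozen cerebrum with cortex and hippocampus, from which olfactory bulb, cerebellum and medulla had been removed. The WT libraries carry the label run 258 and the Sgo1-/+ libraries run 259, so genotype and run cannot be told apart. The labels do not give litters, and p-values measure the spread between these 6 mice only. Sgo1 itself had estimated counts of 0, 7 and 0 in WT and 4, 2 and 0 in Sgo1-/+, too few to check the genotype. Values of a group are listed in the order of its replicates 1 to 3 throughout.

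GABA-A receptors are pentameric chloride channels that open when they bind GABA, the main inhibitory transmitter of the adult brain. Most combine alpha and beta subunits with a gamma subunit and sit at synapses, where they give fast inhibition. Receptors that hold delta in place of gamma sit outside synapses and carry a tonic current. In the forebrain, delta assembles mostly with alpha4, as in dentate granule cells, thalamic relay cells and striatal projection neurons. Alpha2 is known from the axon initial segment of pyramidal cells, alpha3 from the thalamic reticular nucleus and from monoaminergic neurons, and alpha5 from extrasynaptic receptors of hippocampal pyramidal cells. The beta subunits form the GABA-binding interface with alpha.

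One library stood apart before any group was compared. In WT replicate 1 the summed normalized counts of 6 cerebellar granule cell markers were 13085, against 254 to 1003 in the other 5 libraries. The sum of 5 Purkinje cell markers was 10132 there against 241 to 609, and that of 7 brain stem markers was 3947 against 13.2 to 55.8. All genes of these 3 lists were highest in WT replicate 1. The 8 striatal markers were all lowest there, with a sum of 2388 against 12458 to 27852. Of the 6 cortical markers 5 were lowest there (3494 against 6450 to 7847), as were 5 of the 6 markers of hippocampal pyramidal cells (1032 against 3219 to 3592). The 5 pan-neuronal markers were present in every library and did not move together, since in WT replicate 1 Syt1 (5380 against 18496 to 23342) and Rbfox3 were lowest while Nefl (10444 against 3911 to 7089) and Tubb3 were highest. Sgo1-/+ replicate 3 held the highest sum of thalamic markers, 4549 against 957 to 1767 elsewhere, and a sum of oligodendrocyte markers of 125949, second to the 133736 of WT replicate 1 and above the 50255 to 72125 of the other 4 libraries. The sum of dentate gyrus markers was 1328 in Sgo1-/+ replicate 3 and 1021 in WT replicate 1, against 403 to 623 elsewhere. These sums rest on different genes. In WT replicate 1 the sum was mostly Prox1 (496) and Plk5 (414), and only Plk5 and Tdo2 were highest there. Dsp, C1ql2 and Lct were at 22.2, 38.3 and 12.1 in that library. In Sgo1-/+ replicate 3 Prox1 (653), Dsp (198), C1ql2 (178) and Lct (80.8) were highest, with Plk5 at 195. Olfactory bulb markers summed to 184, 1839 and 1621 in the WT libraries and to 999, 174 and 114 in Sgo1-/+. Of 5 markers of cortical interneurons, Sst, Vip, Lhx6 and Npy were lowest in WT replicate 1, while Pvalb, which Purkinje cells also express, was highest (4260 against 383 to 1211). Of 5 astrocyte markers 4 were highest there (sum 27178 against 15179 to 21272). Group differences of the members are therefore given below with and without WT replicate 1, and the part of tissue make-up in the differences was not tested. That library was also the only WT male, so without it the WT libraries are all female while Sgo1-/+ still holds a male. In bulk tissue, fewer cells of a type and less RNA per cell cannot be told apart.

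Of the 7 genes, 6 lie in the GABA-A receptor gene clusters of the mouse genome (mm10, positions as deposited). Gabra2 (ENSMUSG00000000560, chr5:70961057-71095849, minus strand), Gabra4 (ENSMUSG00000029211, chr5:71569734-71658308, minus strand) and Gabrb1 (ENSMUSG00000029212, chr5:71699932-72138389, plus strand) share a cluster with Gabrg1. Gabra5 (ENSMUSG00000055078, chr7:57407690-57510009, minus strand) lies beside Gabrg3. Gabrb2 (ENSMUSG00000007653, chr11:42419757-42629028, plus strand) lies beside Gabra6. Gabra3 (ENSMUSG00000031343, chrX:72432681-72656848, minus strand) lies between Gabre and Gabrq. Gabrd (ENSMUSG00000029054, chr4:155384980-155398112, minus strand) stands alone.

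The upstream sequence is shown for 4 of these genes, since Gabra2 and Gabra4 were the members furthest below the other libraries in WT replicate 1, Gabrb1 is their neighbour with a smaller difference, and Gabra3 is a member of unlike base composition. Each line holds the 250 bases before a RefSeq transcript start (GRCm38.p6), read 5′ to 3′ on the strand of the gene. Capitals mark the letters GGGCGG (the GC box bound by SP and KLF factors) or TATAAA, on either strand. RefSeq windows were found for 6 of the 7 genes, 10 windows in all, and the first window of each shown gene is printed.
Gabra2: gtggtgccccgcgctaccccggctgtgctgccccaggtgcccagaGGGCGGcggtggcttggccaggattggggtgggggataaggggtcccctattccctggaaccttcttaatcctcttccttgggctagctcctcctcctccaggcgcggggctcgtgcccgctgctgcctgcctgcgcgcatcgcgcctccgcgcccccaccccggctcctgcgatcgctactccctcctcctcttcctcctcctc
Gabra4: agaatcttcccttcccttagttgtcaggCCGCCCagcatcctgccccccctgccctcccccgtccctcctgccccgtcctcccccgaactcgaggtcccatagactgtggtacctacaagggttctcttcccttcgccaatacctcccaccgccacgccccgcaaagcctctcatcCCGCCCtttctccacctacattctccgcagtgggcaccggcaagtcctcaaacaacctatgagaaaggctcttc
Gabrb1: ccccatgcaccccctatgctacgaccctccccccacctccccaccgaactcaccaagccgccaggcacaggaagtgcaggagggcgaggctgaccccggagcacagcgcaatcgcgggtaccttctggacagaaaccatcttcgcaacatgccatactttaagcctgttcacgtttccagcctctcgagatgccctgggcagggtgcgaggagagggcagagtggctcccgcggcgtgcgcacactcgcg
Gabra3: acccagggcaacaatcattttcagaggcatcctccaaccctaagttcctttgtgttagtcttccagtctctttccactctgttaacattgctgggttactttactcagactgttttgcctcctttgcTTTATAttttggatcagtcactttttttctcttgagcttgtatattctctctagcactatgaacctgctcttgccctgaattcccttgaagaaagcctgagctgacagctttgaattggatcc
The Gabra2 window (chr5:71095850-71096099, minus strand) is 70.0% G and C with 18 CpG dinucleotides, and the Gabra4 window (chr5:71658309-71658558, minus strand) is 61.2% G and C with 12. The printed Gabrb1 window (chr5:71657671-71657920, plus strand) is 64.4% G and C with 18 CpG dinucleotides. It lies within Gabra4, close to its start, so the RefSeq transcripts of Gabra4 and Gabrb1 begin head to head and overlap. The deposited model of Gabrb1 starts beyond that overlap, directly after a second Gabrb1 window (chr5:71699682-71699931, plus strand). That window, not printed here, is 50.8% G and C with 6 CpG dinucleotides. By contrast, the printed Gabra3 window (chrX:72656920-72657169, minus strand) is 42.4% G and C with 0 CpG dinucleotides. The median over 32851 windows of all genes is 52.4%. GGGCGG occurs once in the Gabra2 window and 2 times in the Gabra4 window, and 32.7% of all windows hold it. TATAAA occurs in the printed Gabra3 window, on the opposite strand, and in 12.4% of all windows. A Gabrb2 window that is not printed holds TATAAA and GGGCGG, 1 time each. The letters TGACG, the core of the cyclic AMP response element, and GCGTGGGCG or GCGGGGGCG, bound by EGR factors, occur in 0 of the 10 windows, against 17.8% and 3.06% of all windows. A match is a run of letters and not a measured binding site.

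All 7 genes were measured well above the filter on low counts, with at least 227 estimated counts in every library. Total estimated counts were 11123917 to 12505561 per library. Counts were scaled by edgeR's TMM factors to a common library size (normalized counts), and levels of different genes were compared only after division by the kilobases of exon (normalized counts per kb). On that scale Gabra3 was the most abundant, with a median over the 6 libraries of 488 normalized counts per kb. Gabrd followed at 329, Gabrb2 at 310, Gabra4 at 287, Gabra5 at 254, Gabra2 at 184 and Gabrb1 at 120. Gabra3 was above Gabrd in 6 of 6 libraries and Gabrb2 above Gabra4 in 6 of 6 (exact two-sided sign-flip test, p = 0.03125 for each, the smallest that 6 libraries allow, adjusted p = 0.0938 over the 6 neighbouring pairs). Gabrd and Gabrb2 were not separated (higher in 3 of 6 libraries, exact p = 0.75), nor were Gabra4 and Gabra5, where Gabra4 was higher in 2 of 6 (exact p = 0.781). Gabra5 was above Gabra2 in 5 of 6 libraries (exact p = 0.0625), as was Gabra2 above Gabrb1 (exact p = 0.125), and the exceptions were Sgo1-/+ replicate 2 for the first of these pairs and WT replicate 1 for the second. With coding length in place of exon length Gabrb2 came first and 6 genes took another rank, and with the longest transcript 5 did, so the order rests on the gene model. The deposited models of Gabra2 and Gabrb1 end short of those of GENCODE M21, and all M21 exons put Gabrb1 at 26.8 normalized counts per kb and Gabra2 at 101, with the same order.

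**Figure D1:**
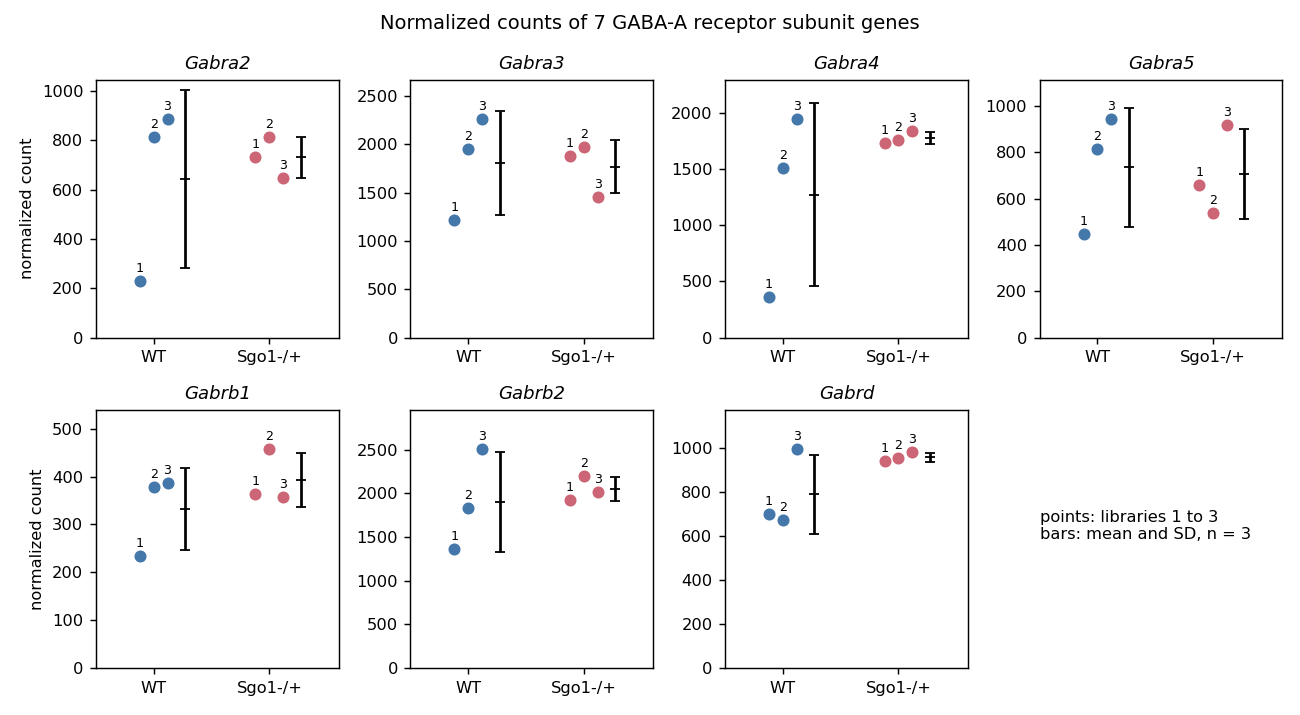
Normalized counts (vertical axes, from 0) of the 7 genes in WT and Sgo1-/+ mice, with 1 numbered point per library and the mean and SD of 3 libraries beside them. WT replicate 1 is the lowest library for every gene other than Gabrd, and the groups overlap in all 7 panels.

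The first question is whether subunit levels differed between Sgo1-/+ and WT. Over the 16337 genes tested, the quasi-likelihood test of edgeR, after Benjamini-Hochberg adjustment, called 0% of genes, and 0 of the 7 subunits had an adjusted p under 0.05. At an unadjusted p under 0.05 the same test took 333 genes, 2.04% of those tested (0.808% higher and 1.23% lower in Sgo1-/+), and 0 of the 7. Without WT replicate 1 it took 3.77% of all genes (1.86% higher, 1.91% lower) and again 0 of the 7. The Wald test of DESeq2, edgeR's likelihood ratio test and limma also gave 0 of the 7 at either level. The WT and Sgo1-/+ libraries overlapped for each of the 7 genes, whereas the groups did not overlap for 6.81% of all genes tested. The median log2 fold change of the 7 (Sgo1-/+ against WT) was 0.19, beside -0.00069 over all genes, and it was -0.08 without WT replicate 1. All 7 subunits had an adjusted p of 0.9999 in the edgeR fit, and over the other settings none went below 0.7635.

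Among the alpha subunits, Gabra4 varied most. Gabra4 stood at 365, 1511 and 1945 normalized counts in WT and at 1734, 1756 and 1842 in Sgo1-/+. The 3 Sgo1-/+ values lay close together, inside the span of the WT libraries, and WT replicate 1 was below all others by a wide margin. The group means were 1273 ± 816 for WT and 1777 ± 57.1 for Sgo1-/+ (SD, n = 3 each). The log2 fold change was 0.48 (SE 0.520, 95% interval -0.75 to 1.71), and 0.04 (-0.25 to 0.33) without WT replicate 1.

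Gabra2 had 229, 811 and 886 normalized counts in WT, and 730, 815 and 647 in Sgo1-/+. WT replicates 2 and 3 were at or above most Sgo1-/+ values, while WT replicate 1 was far below them. The means were 642 ± 360 for WT and 730 ± 84.0 for Sgo1-/+ (SD, n = 3 each), with a log2 fold change of 0.19 (SE 0.450, 95% interval -0.88 to 1.25). Without WT replicate 1 the direction turned, to -0.22 (95% interval -0.51 to 0.07).

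For Gabra3, the member on the X chromosome, normalized counts were 1218, 1949 and 2261 in WT and 1884, 1973 and 1456 in Sgo1-/+. WT replicate 1 was again lowest, and the next lowest was Sgo1-/+ replicate 3. Means of 1809 ± 536 and 1771 ± 276 (SD, n = 3 each) gave a log2 fold change of -0.03 (SE 0.241, 95% interval -0.60 to 0.54). It was -0.25 (-0.60 to 0.10) without WT replicate 1, and its sign varied with the setting.

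Gabra5 was the most variable alpha subunit among the 5 libraries other than WT replicate 1. It had 446, 814 and 942 normalized counts in WT, and 660, 539 and 918 in Sgo1-/+. The highest Sgo1-/+ library, replicate 3, was beside the 2 higher WT libraries, and the other Sgo1-/+ libraries were between those and WT replicate 1. The means were 734 ± 258 and 705 ± 193 (SD, n = 3 each) in WT and Sgo1-/+, and the log2 fold change was -0.06 (SE 0.309, 95% interval -0.79 to 0.68), or -0.32 (-0.81 to 0.18) without WT replicate 1. An antisense gene, Gm9962, shares 148 exon bases with Gabra5 and never exceeded 8.49 estimated counts. No strand setting is given in the sources used here, so reads of the shared bases cannot be assigned.

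Of the beta members, Gabrb2 was the more abundant per kb in all 6 libraries. Normalized counts of Gabrb2 were 1361, 1831 and 2503 in WT and 1925, 2195 and 2017 in Sgo1-/+. The lowest and the highest library were both WT. WT averaged 1898 ± 574 and Sgo1-/+ 2045 ± 137 (SD, n = 3 each), a log2 fold change of 0.11 (SE 0.217, 95% interval -0.41 to 0.62) that became -0.08 (-0.42 to 0.26) without WT replicate 1.

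Gabrb1, the least abundant member, had 234, 378 and 386 normalized counts in WT and 364, 457 and 357 in Sgo1-/+. Apart from WT replicate 1, the 5 libraries kept within a factor of 1.28, with Sgo1-/+ replicate 2 the highest. Means were 333 ± 85.9 and 393 ± 55.9 (SD, n = 3 each), with a log2 fold change of 0.24 (SE 0.219, 95% interval -0.28 to 0.76), and 0.04 (-0.30 to 0.37) without WT replicate 1.

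Gabrd was the only member that was not lowest in WT replicate 1. It had 697, 673 and 992 normalized counts in WT, and 938, 952 and 978 in Sgo1-/+. The Sgo1-/+ libraries formed a narrow band that lay above WT replicates 1 and 2 and below WT replicate 3. WT averaged 787 ± 178 and Sgo1-/+ 956 ± 20.4 (SD, n = 3 each), with a log2 fold change of 0.28 (SE 0.164, 95% interval -0.11 to 0.67). This became 0.20 (-0.18 to 0.58) without WT replicate 1. Without WT replicate 3 it was 0.48 (SE 0.102, unadjusted p = 0.00373, adjusted p = 0.764 by edgeR's quasi-likelihood test), the 1 case in which leaving out a library brought a member under an unadjusted 0.05. That fit took 6.21% of all genes at this level, and 3.15% as higher in Sgo1-/+.

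**Figure D2:**
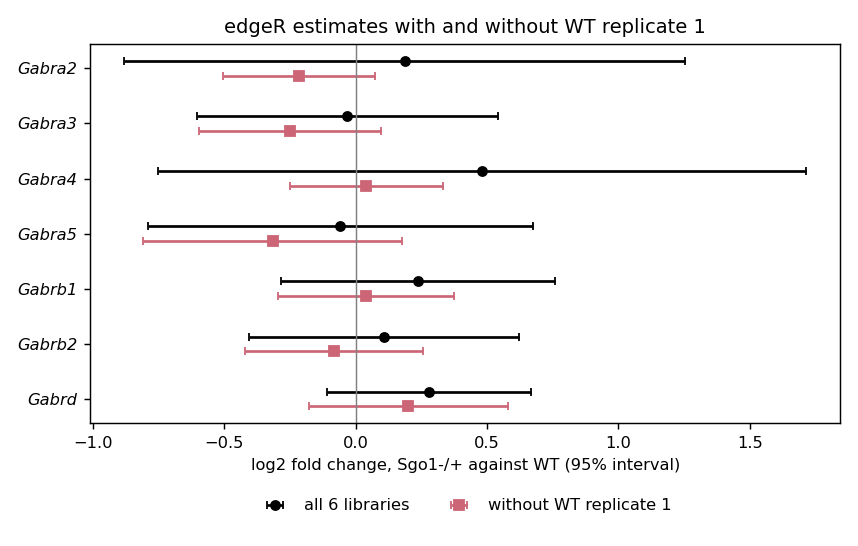
Log2 fold change of Sgo1-/+ against WT (horizontal axis) with its 95% interval for the 7 genes, from edgeR's quasi-likelihood fit to all 6 libraries (circles) and without WT replicate 1 (squares). All 14 intervals include 0, and the interval of Gabra4 shrinks from -0.75 to 1.71 down to -0.25 to 0.33.

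How the 7 transcripts divide their sum was then compared per library, as shares of the summed normalized counts per kb. In WT replicates 2 and 3 and the 3 Sgo1-/+ libraries, Gabra3 made up 19.4 to 26.7% of the sum and was the largest share. Gabrb2 held 15.4 to 17.3%, Gabrd 12.6 to 17.7%, Gabra5 9.29 to 16.5%, Gabra4 13.3 to 15.8%, Gabra2 8.07 to 10.4% and Gabrb1 5.45 to 7.41%. WT replicate 1 had another make-up. There Gabra4 was 5.40% and Gabra2 4.93% of the sum, below every other library, while Gabra3 at 27.9%, Gabrb2 at 19.3% and Gabrd at 21.8% were above every other library. The sum itself was lowest there, at 1110 normalized counts per kb against 1864 to 2296. The levels of Gabra3 and Gabrb2 were also lowest there, so their larger shares were parts of a smaller sum. The shares of Gabra5 (13.8%) and Gabrb1 (6.81%) were within the span of the other 5.

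Between the genotypes, the share of Gabra4 was 5.40, 13.3 and 13.9% in WT and 14.9, 14.5 and 15.8% in Sgo1-/+. It was the only one of the 7 shares whose groups did not overlap. The difference was 4.17 percentage points (10.9 ± 4.76 against 15.0 ± 0.678, SD, n = 3 each; exact two-sided permutation test, p = 0.1, the smallest that 3 against 3 allows, adjusted p = 0.7 over the 7 shares), and 1.42 points without WT replicate 1 (exact p = 0.2). The share of Gabra3 was 27.9, 26.7 and 25.1% in WT and 25.1, 25.2 and 19.4% in Sgo1-/+, a difference of -3.36 points (exact permutation p = 0.2), and -2.67 without WT replicate 1. Sgo1-/+ replicate 3 lay well below the rest there. For Gabrd the shares of 21.8, 12.6 and 15.0% in WT and 17.0, 16.6 and 17.7% in Sgo1-/+ differed by 0.656 points (exact permutation p = 0.9), and by 3.33 points without WT replicate 1, where the groups no longer overlapped (exact permutation p = 0.1, again the smallest possible). The shares of Gabra2, Gabra5, Gabrb1 and Gabrb2 differed by 0.798, -1.78, 0.255 and -0.735 points, with exact permutation p-values of 0.5 to 0.9. Without WT replicate 1 these became -0.833, -2.04, 0.523 and 0.256 points, so those of Gabra2 and Gabrb2 changed direction. The Gabra5 difference was -0.159 points without Sgo1-/+ replicate 2 and -3.75 without Sgo1-/+ replicate 3.

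**Figure D3:**
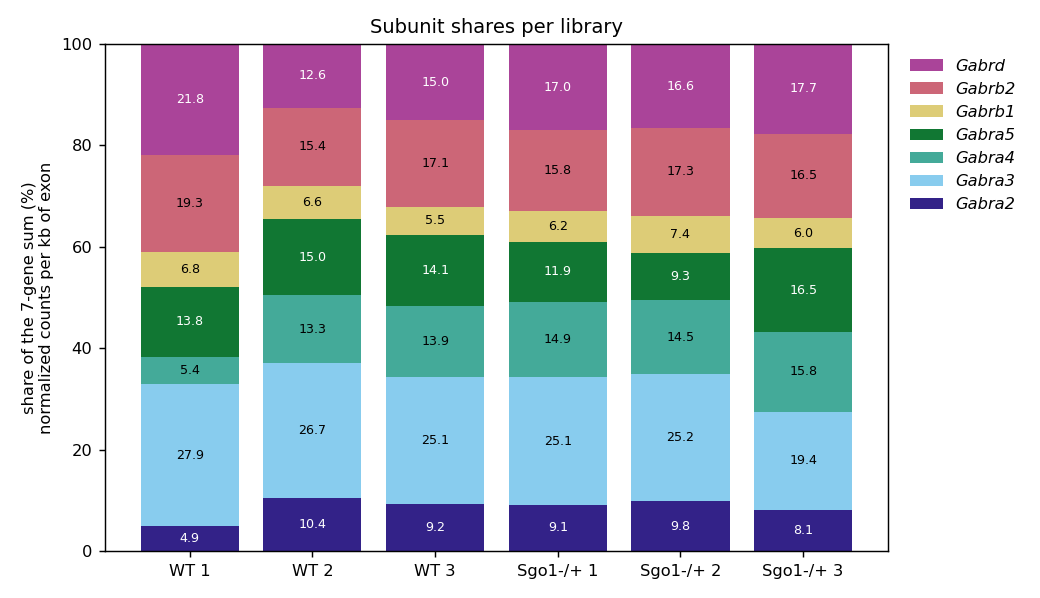
Share of each gene (percent, vertical axis from 0) in the sum of the 7 genes' normalized counts per kb of exon, 1 stacked bar per library. In WT replicate 1 Gabra4 takes 5.40% against 13.3 to 15.8% in the other 5 libraries, and Gabrd takes 21.8% against 12.6 to 17.7%.

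Within the 4 alpha subunits alone, Gabra4 made up 10.4, 20.4 and 22.3% in WT and 24.4, 24.6 and 26.5% in Sgo1-/+. All Sgo1-/+ libraries were above all WT libraries, with and without WT replicate 1. The difference was 7.49 points (exact two-sided permutation test, p = 0.1, adjusted p = 0.4 over 4 such ratios), and 3.83 points without WT replicate 1 (exact p = 0.1). In both cases p is the smallest the design allows, and the ratio was 1 of 11 shares and ratios examined. Gabra5 made up 26.5, 23.0 and 22.6% of the alpha sum in WT and 19.5, 15.8 and 27.6% in Sgo1-/+, with overlapping groups (difference -3.09 points, exact permutation p = 0.5, and -1.85 points without WT replicate 1). It was -0.526 points without Sgo1-/+ replicate 2 and -6.41 without Sgo1-/+ replicate 3 (exact permutation p = 0.1). Gabrb1 was 26.1, 29.8 and 24.1% of the beta sum of Gabrb1 and Gabrb2 in WT and 28.0, 30.0 and 26.7% in Sgo1-/+ (difference 1.55 points, exact permutation p = 0.4, and 1.26 points without WT replicate 1). Leaving out 1 library moved this difference between 0.266 (without WT replicate 3) and 3.12 (without WT replicate 2). For this ratio WT replicate 1 lay inside the span of the other 5 libraries.

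Gabra4 and Gabrd, whose products assemble together in forebrain neurons, were followed as a pair. Per kb, the ratio of Gabrd to Gabra4 was 1.14, 1.15 and 1.12 in Sgo1-/+, and 4.04, 0.943 and 1.08 in WT. In 5 libraries the ratio was therefore near 1 on this scale, and in WT replicate 1 it was several times higher. The level of the ratio rests on the exon bases used, 2875 for Gabrd and 6083 for Gabra4. Their coding bases are 1347 and 1734, so a ratio near 1 does not show equal amounts. Its mean difference was -0.884 (exact permutation p = 1) with all libraries and 0.128 (exact permutation p = 0.1) without WT replicate 1. In normalized counts, Gabrd in WT replicate 1 was within the span of the other 5 (697 against 673 to 992). Gabra4 was below them there (365 against 1511 to 1945). Delta also assembles with alpha6 in cerebellar granule cells, and Gabra6 had 2167 normalized counts in WT replicate 1 against 0 to 72.6 in the other 5. Whether that bears on the ratio was not tested. Over the 6 libraries the log2 normalized counts of Gabra4 and Gabrd gave Pearson's r = 0.674 (permutation p = 0.0639, adjusted p = 0.0958 over 3 pairs) and Spearman's rho = 0.943 (permutation p = 0.0167). Without WT replicates 1 and 2, the libraries farthest from the median of Gabra4, r was 0.969 over 4 libraries (permutation p = 0.0833).

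Correlated in the same way were 2 further pairs. Gabra2 with Gabrb1, genes of 1 cluster, gave r = 0.943 and rho = 0.943 over 6 libraries (permutation p = 0.0236 and 0.0167, adjusted p = 0.0708 for r). Without WT replicate 1 and Sgo1-/+ replicate 3 r was 0.310 (permutation p = 0.542) and rho was 0.8 (permutation p = 0.333). The size of r thus depended on those libraries, and the 4 libraries left are too few to settle the relation. Gabra5 with Gabrb2 gave r = 0.661 (permutation p = 0.143) and rho = 0.6 (permutation p = 0.242), and r = 0.601 without WT replicate 1 and Sgo1-/+ replicate 2 (permutation p = 0.417). With only WT replicate 1 left out it was 0.152 (permutation p = 0.8). Each run holds 3 libraries of 1 genotype, too few for a value within runs.

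**Figure D4:**
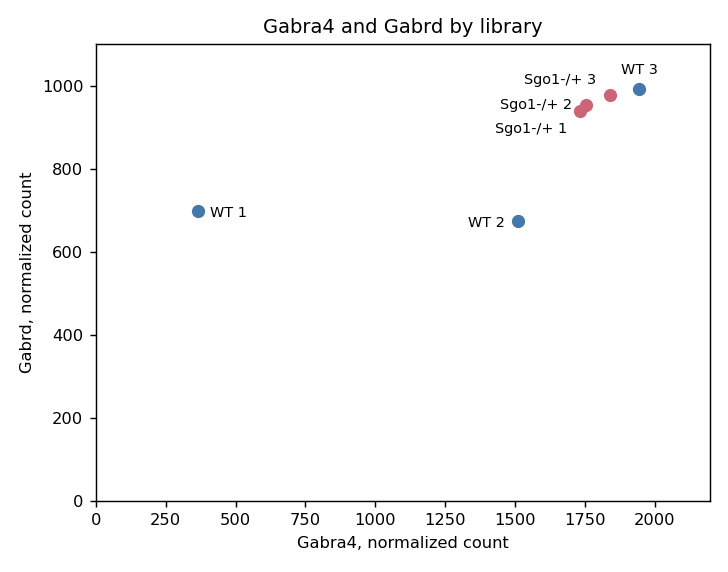
Normalized counts of Gabra4 (horizontal axis) and Gabrd (vertical axis), both from 0, with 1 point per library. The 3 Sgo1-/+ libraries and WT replicate 3 lie together at 1734 to 1945 counts of Gabra4 and 938 to 992 of Gabrd, and WT replicate 1 lies apart at 365 and 697.

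Set against the median of the other 5 libraries, WT replicate 1 held 0.208 times as much Gabra4, 0.282 times as much Gabra2, 0.548 times as much Gabra5, 0.618 times as much Gabrb1, 0.625 times as much Gabra3, 0.675 times as much Gabrb2 and 0.732 times as much Gabrd. It was the lowest library for 6 of the 7 members, as it was for 30.4% of all genes tested. It lay at or under 0.5 times the lowest other library for Gabra2 and Gabra4, 2 of 7, against 4.74% of all genes, and at or over 2 times the highest other library for 0 of 7, against 1.67%. These counts describe 1 mouse.

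The genomic neighbours did not share one ratio in WT replicate 1. On chromosome 5 Gabrg1 was at 0.885 times the median of the other 5, beside 0.282 for Gabra2 and 0.208 for Gabra4. On chromosome 7 Gabrg3 was at 0.328, beside 0.548 for its neighbour Gabra5. On chromosome 11 Gabrb2 was at 0.675, while its neighbour Gabra6, the alpha subunit of cerebellar granule cells and itself one of their 6 markers here, was at 62.8. On the X chromosome Gabre was at 1.43 and Gabrq at 1.24, on either side of Gabra3. Both lay inside the span of the other 5 libraries, Gabre with 31.2 normalized counts against 11.3 to 52.7 and Gabrq with 140 against 22.5 to 174.

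**Figure D5:**
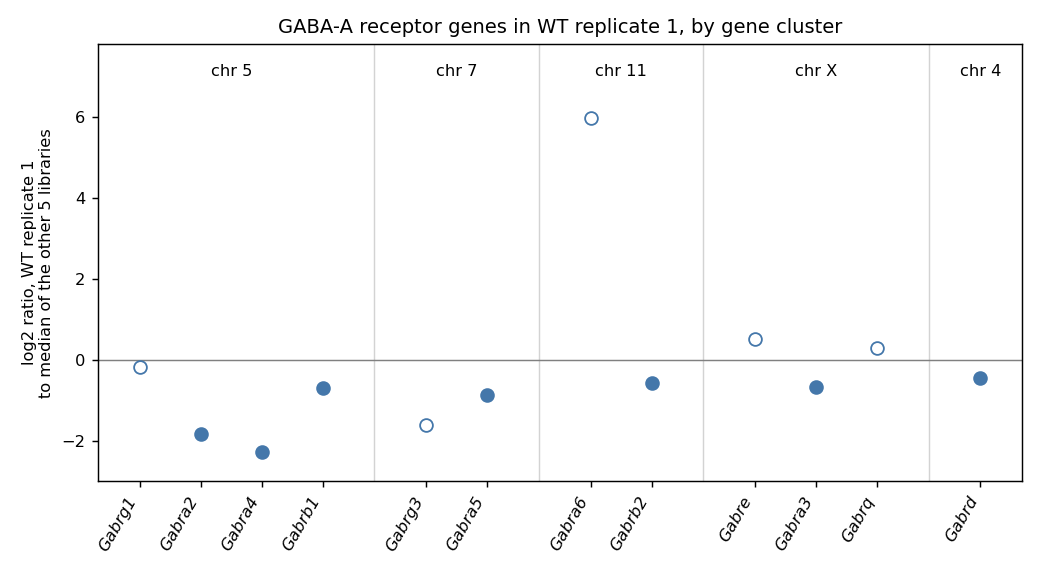
Log2 ratio of the normalized count in WT replicate 1 to the median of the other 5 libraries (vertical axis) for 12 GABA-A receptor genes, grouped by chromosome in genomic order; filled points are the 7 members and open points other subunits. All 7 members lie below 0, whereas Gabra6 lies far above it, at 62.8 times the median.

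Among all 19 GABA-A receptor subunit genes of the table, the 7 members made up 48.3 to 52.0% of the summed normalized counts per kb in the other 5 libraries and 32.4% in WT replicate 1. Gabra6 took 25.4% in WT replicate 1 and at most 0.745% elsewhere. Of the 12 subunits outside the 7 members, 9 were tested and 0 were called by edgeR's quasi-likelihood test, adjusted or at an unadjusted p under 0.05. Normalized counts of Gabrq were 140, 140 and 45.6 in WT and 113, 174 and 22.5 in Sgo1-/+. Gabra6 had 0 to 72.6 in the libraries other than WT replicate 1. Gabrp, Gabrr1 and Gabrr3 stayed near or under 3 counts and were not ordered.

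The genes around the receptor were read from lists of 48 genes with the other subunits, of which 45 were tested, and 0 of the 45 had an adjusted or an unadjusted p under 0.05 in edgeR's quasi-likelihood test. Without WT replicate 1 there were 2 at an unadjusted p under 0.05, in the fit that took 3.77% of all genes. These were Plcl1, which binds GABARAP and steers receptor trafficking (log2 fold change 0.31, SE 0.124), and Gad1, a GABA-synthesizing enzyme (-0.41, SE 0.144), both with an adjusted p of 0.9995. Over all genes tested, 8138 of 16337 had a positive log2 fold change, and 8518 of 16617 without WT replicate 1. Of 13 genes for clustering and assembly, 8 had a positive log2 fold change, from Hap1 at -0.16 to Shisa7 at 0.55. Without WT replicate 1, 7 of the 13 did, from Hap1 at -0.24 to Plcl1 at 0.31. Shisa7, an auxiliary subunit of the receptor, had 371, 1289 and 1869 normalized counts in WT and 1862, 1756 and 1540 in Sgo1-/+, at 0.211 times the median of the other 5 libraries in WT replicate 1, close to the value of Gabra4. Gphn, the scaffold gephyrin, had 953, 1161 and 1133 in WT and 1140, 1127 and 972 in Sgo1-/+, with little spread. Of 8 genes for GABA synthesis, transport and breakdown, 1 had a positive log2 fold change, and they ranged from -0.62 for Slc6a13 to 0.11 for Gad2. Without WT replicate 1, 2 of the 8 were positive, and the range was -0.65 to 0.08. Whether these genes moved as a set was not tested. The 5 genes of chloride transport and its control ranged from -0.18 for Stk39 to 0.03 for Slc12a5, the neuronal chloride exporter that sets the driving force for the receptor. Their range was -0.03 to 0.34 without WT replicate 1. The 6 GABA-B receptor genes ranged from -0.27 for Kctd12 to 0.76 for Kctd16, which fell to 0.35 without WT replicate 1 while Kctd12 stayed at -0.27. The 4 genes of endogenous modulators ranged from -0.28 for Dbi to 0.71 for Akr1c14, which had at most 17.4 normalized counts. Without WT replicate 1 all 4 were positive, from 0.01 to 0.55 for Akr1c14, so Dbi changed direction. The groups did not overlap for 3 of these genes, Kctd12, Kctd16 and Clptm1, against 6.81% of all genes tested.

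Each member was last matched to the gene of most similar pattern, by Pearson's r of log2 CPM over the 6 libraries among 6432 or 6433 genes of sufficient level. The closest were Tcf20 for Gabra2 (r = 0.999), Tmtc1 for Gabra3 (0.993), Mal2 for Gabra4 (1.00), Kdm5c for Gabra5 (0.980), Snx25 for Gabrb1 (0.997), Nrcam for Gabrb2 (0.997) and Coq2 for Gabrd (0.999). All genes share the same 6 libraries and their depth, so r is a description only. The number of genes with r over 0.95 was 607 for Gabra2 and 603 for Gabra4, the members lowest in WT replicate 1, and 184 for Gabrb1, 163 for Gabrb2, 73 for Gabra3, 46 for Gabrd and 6 for Gabra5.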

How the data were processed

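RNA of the cerebrum was sequenced from 3 WT and 3 Sgo1-/+ mice with a TruSeq V2 kit. The study's methods name Strand NGS and mm10 for alignment, while the submitters' processing notes name BWA and edgeR. The authors deposited an estimated count per gene and library, without normalization. The authors also deposited normalized log2 values, DESeq-scaled and centred on each gene's median, used here only as an alternative. A column of the authors' own fold changes was used only to check which libraries are WT and which are Sgo1-/+. The members and gene lists were chosen with earlier results of these data known.

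Estimated counts were rounded and fitted with edgeR 4.0.16 in R 4.3.3 (quasi-likelihood, TMM, filterByExpr, 16337 genes tested, Benjamini-Hochberg adjustment, threshold 0.05), after the script had been tested on simulated data. Shares and orders used counts divided by the GENCODE M21 exon bases inside the deposited gene bounds, a choice made after the bounds were seen. Exact two-sided tests enumerated 20 groupings of the libraries for shares, 64 sign flips for the order and 720 pairings for correlations. A gene listed at 0 may hold up to 3 counts, and this limit covers counting error only. Sex-linked genes matched the label in 6 of 6 libraries. Genes named in the text are the members, the other subunits, the lowest and highest of each pathway list, and for each member the most alike gene with a mean of at least 5 log2 CPM. Plcl1, Gad1, Gphn, Clptm1, Gm9962 and the single marker genes were added after their values were seen. Some other subunits are not reported here singly. Alternatives were DESeq2 1.42.0, limma 3.58.1 (pseudocount 1), other filters and scalings, sex, the replicate block, other gene lengths and each library left out.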

Additional observations from a re-analysis of the deposited data

How the results depend on the processing

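The log2 fold changes of Gabra4, Gabrb1 and Gabrd were positive in every setting run, and no member passed an adjusted p of 0.05 in any of them. Leaving out 1 library moved the log2 fold change of Gabra2 between -0.22 and 0.49, of Gabra3 between -0.25 and 0.16, of Gabra5 between -0.32 and 0.16 and of Gabrb2 between -0.083 and 0.36, so each of these changed sign. It moved the differences in share between -0.833 and 1.91 points for Gabra2, -0.185 and 0.523 for Gabrb1, -1.65 and 0.256 for Gabrb2 and -1.30 and 3.33 for Gabrd, and the ratio of Gabrd to Gabra4 between -1.42 and 0.128. Gabra3 turned just positive with limma on DESeq-scaled counts (0.0014), with sex as a covariate (0.0054) and with limma on the authors' values (0.0025). The labels give no pairing of the mice. Deviations of libraries with the same replicate number from their group means correlated at -0.145, 0.00975 and -0.210, which cannot settle whether mice were paired. With the replicate number as a block, Gabra3 was at 0.0037, 0 members and 280 of 16337 genes had an unadjusted p under 0.05, and no call changed. Past the adjusted threshold DESeq2 took 3 of 16337 genes, the likelihood ratio test 2 and the fits without 1 library 0 to 1. At an unadjusted p under 0.05 there were 563 of 26061 genes with no filter. Without 1 library there were 240 (of 16691, without Sgo1-/+ replicate 2) to 1040 (of 16741, without WT replicate 3). Members numbered 0 to 1 and pathway genes 0 to 5 of 45 tested. The 1 and the 5 came without WT replicate 3 and were higher in Sgo1-/+. That fit took 6.21% of all genes, and 3.15% as higher. The order of levels moved for 5 genes with the longest transcript and 6 with coding length. Without WT replicate 1 Gabra4 with Gabrd gave r = 0.93, Gabra5 with Gabrb2 0.15 and Gabra2 with Gabrb1 0.53, and 0.31 without its 2 farthest libraries. The cause of these shifts was not tested.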
